A study of Homo sapiens with 2 samples.

Results

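The genes described here are 10 genes of DNA end joining and of the 53BP1 pathway, FAM35A, TP53BP1, RIF1, MAD2L2, XRCC4, XRCC5, XRCC6, LIG4, PRKDC and DCLRE1C. They were picked out by symbol from the 40205 gene symbols of an RNA sequencing table of RKO cells, and all 10 were found. RKO is an established human colorectal cancer cell line with defective DNA mismatch repair. The cells were collected on day 2 after transfection, 1 library from cells given an siRNA against hnRNPK and 1 library from cells given a control siRNA. The title and protocol of the first library name an siRNA, while its genotype label is worded as a knockout, so it is called hnRNPK siRNA here. The labels state neither the siRNA sequences nor the number of cultures behind each library. The list of 10 was drawn up with the ratio between these 2 libraries in view, so their levels and ratios are a description. With 1 library per group, none of the differences has been checked in replicates and no test between conditions was possible.

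End joining repairs a broken DNA molecule by holding the ends together and sealing them. The Ku ring, made of Ku70 (XRCC6) and Ku80 (XRCC5), slides onto each end and brings in the DNA-dependent protein kinase catalytic subunit (PRKDC). The nuclease Artemis (DCLRE1C) trims ends that cannot be joined directly, and ligase IV (LIG4) seals them on the scaffold protein XRCC4. The chromatin reader 53BP1 (TP53BP1) favours this route by protecting ends from resection, through RIF1 and the shieldin complex, in which MAD2L2 (also named REV7) bridges to FAM35A (also named SHLD2), the subunit that binds single-stranded DNA. hnRNPK is an RNA-binding and C-rich nucleic acid-binding protein of the nucleus.

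FAM35A had near-identical copies in the genome, which matter for its value because short reads can fit more than 1 of them. The first 150 coding bases of FAM35A are shown with the same stretch of 2 pseudogene copies, all on chromosome 10, read from GENCODE release 29 transcripts. Capitals in the copies mark bases that differ from FAM35A.

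FAM35A: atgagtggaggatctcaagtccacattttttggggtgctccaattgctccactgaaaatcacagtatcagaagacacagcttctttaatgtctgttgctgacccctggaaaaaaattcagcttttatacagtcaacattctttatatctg
SHLD2P1: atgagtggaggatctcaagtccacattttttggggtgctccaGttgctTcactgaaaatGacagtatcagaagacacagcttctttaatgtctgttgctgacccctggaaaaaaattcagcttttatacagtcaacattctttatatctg
SHLD2P3: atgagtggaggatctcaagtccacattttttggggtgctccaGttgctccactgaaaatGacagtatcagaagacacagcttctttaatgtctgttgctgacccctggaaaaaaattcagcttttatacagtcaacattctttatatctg

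The copies differed from FAM35A at 3 and 2 of the 150 bases. Over the whole aligned transcript the identity was 98.4% for SHLD2P1 (3503 aligned bases), 98.5% for SHLD2P3 (2716 aligned bases) and 94.8% for SHLD2P2 (2482 aligned bases). Of the 3565 windows of 50 bases in the FAM35A transcript, 1886 (52.9%) occurred unchanged in a copy and 1679 (47.1%) occurred in none of the 3. The labels do not state the read length or how reads with several matches were treated.

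The next sequences show where pathway genes share their start region with a gene on the other strand, which the results on neighbours turn on. Each is RefSeq's window of 250 bases before to 50 bases after the annotated start, on build GRCh38.p14, printed in the direction of the named gene. Capitals mark the bases that also lie in the window of the neighbour, ABHD13 for LIG4 (chr13:108218300-108218599, minus strand), TMEM167A for XRCC4 (chr5:83077297-83077596, plus strand) and DESI1 for XRCC6 (chr22:41621045-41621344, plus strand).

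LIG4: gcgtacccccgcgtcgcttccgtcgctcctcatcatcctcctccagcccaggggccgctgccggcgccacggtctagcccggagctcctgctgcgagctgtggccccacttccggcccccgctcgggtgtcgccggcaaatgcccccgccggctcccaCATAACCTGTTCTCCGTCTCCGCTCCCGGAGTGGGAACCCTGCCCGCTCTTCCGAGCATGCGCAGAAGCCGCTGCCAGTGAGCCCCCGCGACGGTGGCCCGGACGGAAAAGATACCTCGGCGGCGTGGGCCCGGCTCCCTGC
XRCC4: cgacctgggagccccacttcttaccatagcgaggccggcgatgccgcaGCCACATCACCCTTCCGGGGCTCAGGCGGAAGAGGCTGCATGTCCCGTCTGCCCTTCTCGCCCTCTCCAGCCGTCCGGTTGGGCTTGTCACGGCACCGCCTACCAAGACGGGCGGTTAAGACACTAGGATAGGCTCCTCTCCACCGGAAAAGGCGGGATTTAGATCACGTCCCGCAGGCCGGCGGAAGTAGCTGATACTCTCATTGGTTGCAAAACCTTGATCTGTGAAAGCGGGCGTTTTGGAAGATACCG
XRCC6: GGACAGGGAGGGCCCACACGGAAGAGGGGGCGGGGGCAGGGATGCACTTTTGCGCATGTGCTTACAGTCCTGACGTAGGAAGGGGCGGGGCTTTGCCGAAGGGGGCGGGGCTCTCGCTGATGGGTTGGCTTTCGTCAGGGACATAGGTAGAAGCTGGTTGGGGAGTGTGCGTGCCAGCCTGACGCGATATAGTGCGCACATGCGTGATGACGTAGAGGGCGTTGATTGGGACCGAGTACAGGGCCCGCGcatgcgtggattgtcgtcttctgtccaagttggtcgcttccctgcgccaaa

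The shared bases numbered 252 for XRCC4 and 249 for XRCC6. Windows on chromosome 8 were left out before any were counted. The windows used covered 7 of the 10 genes, all except FAM35A, XRCC5 and PRKDC. For LIG4, MAD2L2 and DCLRE1C several starts were listed, and the first was used.

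Values are FPKM (fragments relative to transcript length and library size), as the authors deposited them. Whole reads could be worked out from the FPKM values for 99.95% of the 19069 genes above 0. The library totals were 28550823 reads for hnRNPK siRNA and 25729856 reads for control siRNA. Intervals in brackets are exact Clopper-Pearson 95% intervals of the FPKM ratio, from the smallest read numbers that fit, and they cover counting error only. The targeted gene itself, HNRNPK, was at 61.5 FPKM in hnRNPK siRNA and 338.0 FPKM in control siRNA, a ratio of 0.182 (0.174 to 0.190). Of 10 colorectal epithelial markers, EPCAM, KRT8, KRT18 and CDX2 had a mean of at least 1 FPKM, while CDH1, KRT19, KRT20 and VIL1 were listed at 0 in both libraries and CDH17 and GPA33 did not exceed 0.0251 FPKM. All 5 blood cell markers were listed at 0, and the summed FPKM of 5 stromal and endothelial markers was 0.0434 in hnRNPK siRNA and 0.00656 in control siRNA. The summed FPKM of 3 neuronal markers was 0.0576 in hnRNPK siRNA and 0.688 in control siRNA.

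FAM35A stood apart from the other 9 genes in the hnRNPK siRNA library. It was at 25.7 FPKM in hnRNPK siRNA and 8.93 FPKM in control siRNA, a ratio of 2.88 (2.57 to 3.22) from at least 1325 and 415 reads. On the log2 scale with 1 FPKM added to each library before the ratio is taken, used for all counts here, it was 1.43, which placed it at rank 22 from the highest of the 11454 genes with a mean of at least 1 FPKM. Of the 10 genes, 1 was at least 2-fold higher, FAM35A, against 0.777% of the 11454 genes. None of the 10 was at least 2-fold lower, against 3.55% of all genes. Since the list was put together with these ratios known, nothing is read from these counts.

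**Figure D1:**
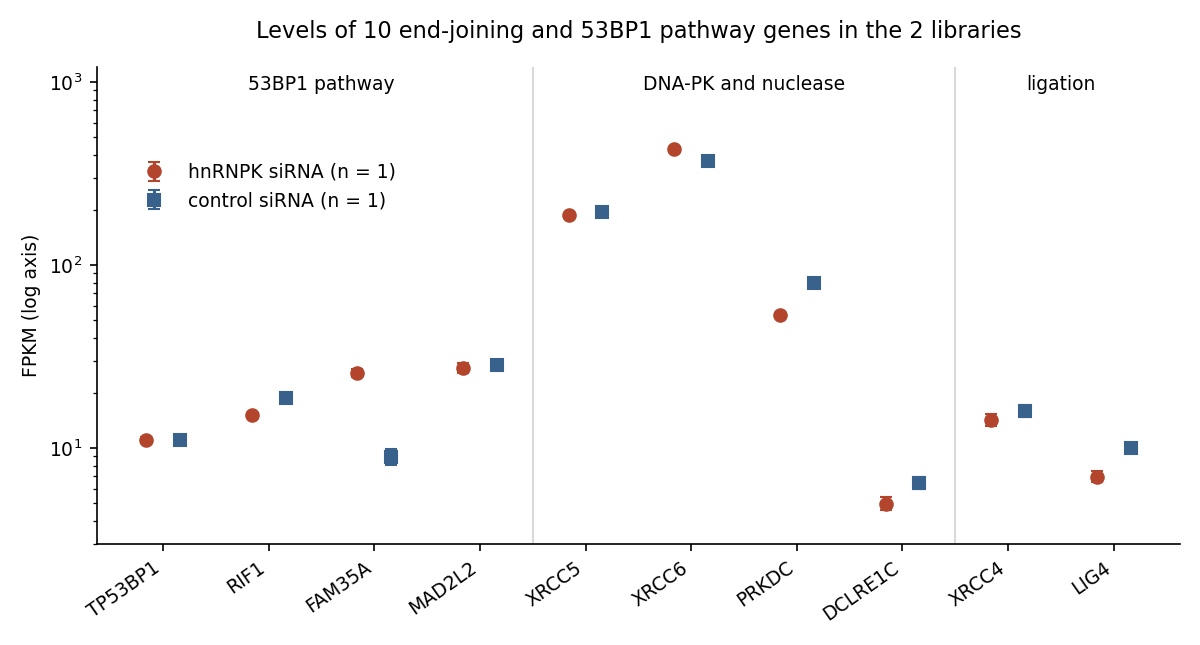
FPKM of each of the 10 genes on a log axis, with hnRNPK siRNA as circles and control siRNA as squares, 1 library each, grouped by role. Bars are exact Poisson 95% intervals from the recovered reads and are smaller than most symbols. FAM35A is at 25.7 FPKM in hnRNPK siRNA and 8.93 FPKM in control siRNA, while the other genes differ by less than 2-fold.

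The median log2 ratio of the 10 genes was −0.10, and that of all 11454 genes was −0.15. Relative to that overall shift, 5 of the 10 genes lay above the middle of all genes and 5 below it. In order of log2 ratio the 10 genes ran from PRKDC at −0.58, through LIG4 at −0.46, DCLRE1C at −0.32, RIF1 at −0.30, XRCC4 at −0.15, MAD2L2 and XRCC5 both at −0.06, TP53BP1 at 0.01 and XRCC6 at 0.21, to FAM35A at 1.43. Below 0 lay 7 of the 10, against 64.8% of all genes.

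**Figure D2:**
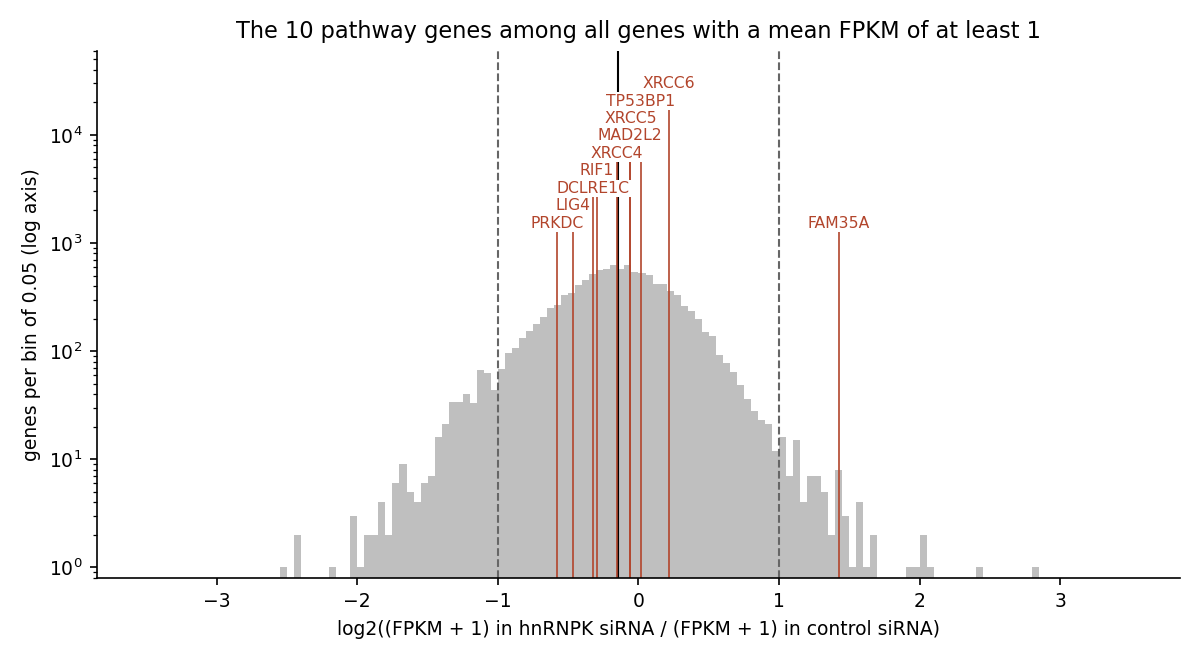
Histogram of the log2 ratio of (FPKM + 1) between hnRNPK siRNA and control siRNA for the 11454 genes with a mean of at least 1 FPKM, with the number of genes per bin on a log axis. Red lines mark the 10 pathway genes, the black line the median of all genes at −0.15 and dashed lines 2-fold either way. FAM35A at 1.43 lies past 2-fold, and the other 9 genes lie between −0.58 and 0.21.

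In the 53BP1 pathway, the genes upstream of FAM35A did not share its difference. TP53BP1, the reader that binds modified histones at breaks, was at 11.1 FPKM in hnRNPK siRNA and 11.0 FPKM in control siRNA, a ratio of 1.01 (0.962 to 1.06). RIF1, which binds phosphorylated 53BP1 and recruits shieldin, was at 15.1 FPKM in hnRNPK siRNA and 18.8 FPKM in control siRNA, a ratio of 0.803 (0.771 to 0.837). MAD2L2, the shieldin adaptor that also serves in the translesion polymerase zeta, was at 27.3 FPKM in hnRNPK siRNA and 28.4 FPKM in control siRNA, a ratio of 0.959 (0.877 to 1.05). The intervals of TP53BP1 and MAD2L2 included 1, that of RIF1 lay below 1 and that of FAM35A above 1.

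The levels of these genes relative to each other therefore differed between the libraries. FPKM are per length, which allows genes to be set beside each other within a library. Dividing by length does not account for reads that fit both FAM35A and its copies, and their effect on these ratios was not tested. FAM35A was at 0.942 times the FPKM of MAD2L2 in hnRNPK siRNA (0.867 to 1.02) and 0.314 times in control siRNA (0.279 to 0.353). Relative to TP53BP1 it was at 2.31 times in hnRNPK siRNA (2.16 to 2.46) and 0.811 times in control siRNA (0.730 to 0.900). RIF1 was at 1.36 times the FPKM of TP53BP1 in hnRNPK siRNA (1.30 to 1.42) and 1.71 times in control siRNA (1.64 to 1.79). C20orf196, now named SHLD1 and the shieldin subunit that partners FAM35A, was at 0.911 FPKM in hnRNPK siRNA and 1.15 FPKM in control siRNA, from 15 and 17 reads, a ratio of 0.795 (0.370 to 1.69) whose interval spans both directions. SHLD3, the remaining shieldin subunit, was not analysed here.

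The copies of FAM35A that have rows of their own differed less between the libraries than FAM35A did. FAM35BP was at 0.947 FPKM in hnRNPK siRNA and 0.768 FPKM in control siRNA, a ratio of 1.23 (0.886 to 1.73). FAM35DP was at 1.34 FPKM in hnRNPK siRNA and 1.18 FPKM in control siRNA, a ratio of 1.14 (0.771 to 1.68), and FAM35CP was listed at 0 in both. The upper ends of the first 2 intervals lay below 2.57, the lower end of that of FAM35A. FAM35EP, added after its values were seen, was at 0.192 FPKM in hnRNPK siRNA and 0.12 FPKM in control siRNA, from 39 and 22 reads, and its interval (0.924 to 2.83) overlapped that of FAM35A. RefSeq lists FAM35BP and FAM35EP as older names of SHLD2P1, FAM35DP of SHLD2P3 and FAM35CP of SHLD2P2. The smallest length that fitted FAM35A was 1807 bases, and 2 times that, 3614 bases, is the length of a GENCODE release 29 transcript of the gene. At that length its reads would be 2650 in hnRNPK siRNA and 830 in control siRNA. How reads were divided between FAM35A and its copies was not tested.

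The Ku genes had by far the highest FPKM of the 10 in both libraries, and their ratios lay on either side of 1. Both log2 ratios, 0.21 for XRCC6 and −0.06 for XRCC5, lay above the median of all genes, −0.15. XRCC6 was at 430.8 FPKM in hnRNPK siRNA and 371 FPKM in control siRNA, a ratio of 1.16 (1.13 to 1.19). XRCC5 was at 188 FPKM in hnRNPK siRNA and 195 FPKM in control siRNA, a ratio of 0.961 (0.942 to 0.981). XRCC6 was thus at 2.29 times the FPKM of XRCC5 in hnRNPK siRNA (2.24 to 2.35) and 1.90 times in control siRNA (1.85 to 1.95). Together the Ku genes made up 79.6% of the summed FPKM of the 10 genes in hnRNPK siRNA and 75.9% in control siRNA. Of 5 pseudogenes listed for XRCC6, 4 were at 0 in both libraries and XRCC6P2 was at 0.0692 FPKM in hnRNPK siRNA and 0.141 FPKM in control siRNA.

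PRKDC, the kinase that Ku recruits, was the lowest of the 10 by log2 ratio. It was at 53.1 FPKM in hnRNPK siRNA and 80.0 FPKM in control siRNA, a ratio of 0.664 (0.652 to 0.676) that is 1.51-fold lower, from 20471 and 27798 reads. Of the 11454 genes, 14.8% had a lower log2 ratio, and at −0.58 PRKDC fell just short of 1.5-fold once 1 FPKM was added, so none of the 10 genes was at least 1.5-fold lower on that scale, against 14.7% of all genes. PRKDC was at 0.283 times the FPKM of XRCC5 in hnRNPK siRNA (0.277 to 0.288) and 0.410 times in control siRNA (0.402 to 0.417). DCLRE1C, the Artemis nuclease that PRKDC activates, was at 4.95 FPKM in hnRNPK siRNA and 6.45 FPKM in control siRNA, a ratio of 0.768 (0.686 to 0.859). The DCLRE1C to PRKDC ratio was 0.0933 in hnRNPK siRNA (0.0858 to 0.101) and 0.0807 in control siRNA (0.0747 to 0.0870). These intervals overlap, which does not show that the ratios agree, and their difference was not tested.

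The ligation genes both had log2 ratios below 0, as did 64.8% of all genes. LIG4 lay at −0.46, while its scaffold XRCC4, at −0.15, lay at the median of all genes, −0.15. LIG4 was at 6.95 FPKM in hnRNPK siRNA and 9.95 FPKM in control siRNA, a ratio of 0.698 (0.636 to 0.765). XRCC4 was at 14.2 FPKM in hnRNPK siRNA and 15.8 FPKM in control siRNA, a ratio of 0.895 (0.804 to 0.996). XRCC4 was at 2.04 times the FPKM of LIG4 in hnRNPK siRNA (1.84 to 2.26) and 1.59 times in control siRNA (1.44 to 1.75).

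The direction of 3 genes depends on how the libraries are scaled. After centring on the median of all genes, MAD2L2 was at 0.09 and XRCC5 at 0.09 on the log2 scale, and with trimmed mean of M values (TMM) factors they were at 0.11 and 0.12, all on the higher side. XRCC4 was at 0.00 after centring and 0.02 with TMM factors. The other 7 kept their side, with PRKDC at −0.44 and −0.41, LIG4 at −0.32 and −0.31, XRCC6 at 0.36 and 0.39 and FAM35A at 1.57 and 1.60 under centring and TMM factors in that order.

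By level, the order from the top in hnRNPK siRNA was XRCC6, XRCC5, PRKDC, MAD2L2, FAM35A, RIF1, XRCC4, TP53BP1, LIG4 and DCLRE1C. Exact Poisson 95% intervals overlapped there for MAD2L2 and FAM35A (25.6 to 29 and 24.3 to 27.1 FPKM) and for RIF1 and XRCC4 (14.7 to 15.6 and 13.1 to 15.3 FPKM). In control siRNA the order was XRCC6, XRCC5, PRKDC, MAD2L2, RIF1, XRCC4, TP53BP1, LIG4, FAM35A and DCLRE1C, with overlap for LIG4 and FAM35A (9.36 to 10.6 and 8.09 to 9.83 FPKM). FAM35A was thus at rank 5 in hnRNPK siRNA and rank 9 in control siRNA, and the other 9 genes held the same order among themselves in both libraries.

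Several of the 10 genes start beside a gene on the other strand, and the log2 ratios of these pairs were far apart in some and close in others. These neighbours were taken after the values were seen, except GLUD1. A partner is a protein-coding gene that points the other way and starts within 1000 bases, by GENCODE release 29, and 794 such pairs in the table had both genes at a mean of at least 1 FPKM. Their median absolute difference in log2 ratio was 0.37. GLUD1, a mitochondrial glutamate dehydrogenase whose annotated 5′ end overlaps that of FAM35A, was at 27.7 FPKM in hnRNPK siRNA and 40.4 FPKM in control siRNA, a ratio of 0.686 (0.653 to 0.721). Its log2 ratio of −0.53 lay 1.95 from that of FAM35A, and 2 of the 794 pairs, this one included, were at least that far apart. FAM35A was picked for its own ratio, so the distance is a description. Without knowledge of the strand in counting, reads from the overlap of the 2 genes cannot be told apart. On the far side, the next gene with a row in the table, NUTM2A, was at 0.236 FPKM in hnRNPK siRNA and 0.270 FPKM in control siRNA.

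The pairs at the XRCC6 and XRCC4 start regions printed above also lay further apart than the median pair, but only XRCC6 and its partner lay on opposite sides of 0. DESI1, a peptidase gene that shares 249 bases of start window with XRCC6, was at 5.19 FPKM in hnRNPK siRNA and 13.8 FPKM in control siRNA, a ratio of 0.375 (0.325 to 0.431), while XRCC6 had a ratio above 1. Of the 794 pairs, 2.39% were at least as far apart. TMEM167A, which encodes a small Golgi membrane protein, was at 8.09 FPKM in hnRNPK siRNA and 19.5 FPKM in control siRNA, a ratio of 0.414 (0.364 to 0.470), beside 0.895 for XRCC4, and 7.81% of pairs were at least as far apart. DESI1 and TMEM167A were both more than 2-fold lower in hnRNPK siRNA, against 3.55% of all genes at least 2-fold lower. These partners were taken after the values were seen, so nothing is read from this.

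LIG4 and PRKDC lay close to their partners instead. ABHD13, an abhydrolase gene whose start window overlaps that of LIG4 as printed above, was at 4.49 FPKM in hnRNPK siRNA and 7.37 FPKM in control siRNA, a ratio of 0.609 (0.529 to 0.70). MCM4, a subunit of the replicative helicase that starts beside PRKDC, was at 76.6 FPKM in hnRNPK siRNA and 102.7 FPKM in control siRNA, a ratio of 0.745 (0.726 to 0.764). The log2 ratios of these pairs differed by 0.15 and 0.16, less than the median pair. The partner of TP53BP1, MAP1A, had a mean under 1 FPKM, and that of MAD2L2, DRAXIN, was listed at 0 in both libraries.

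**Figure D3:**
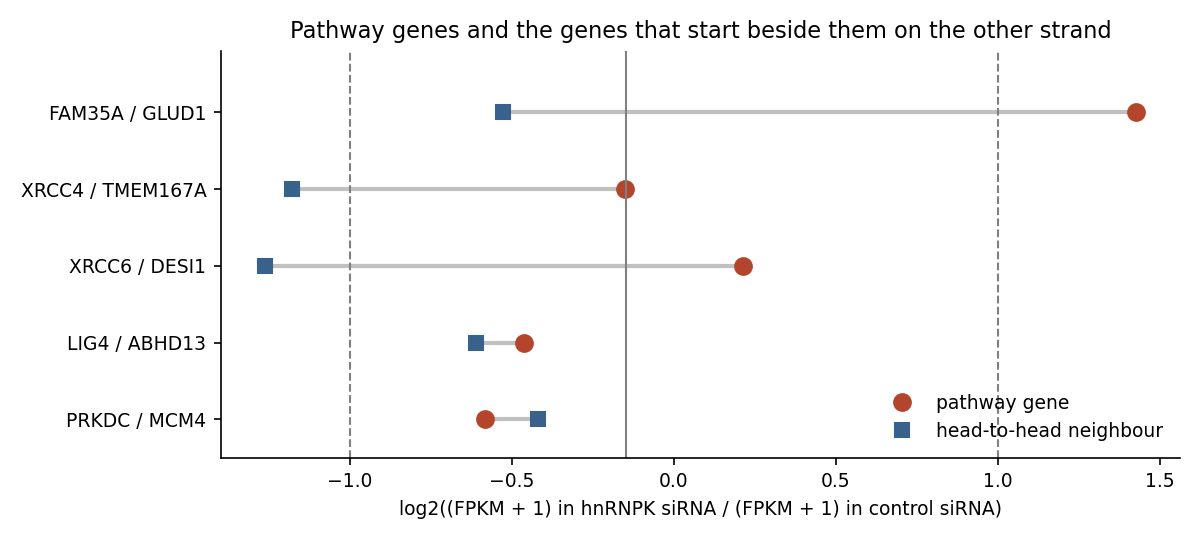
Log2 ratio of (FPKM + 1) between hnRNPK siRNA and control siRNA for 5 pathway genes (circles) and the gene that starts beside each on the other strand (squares), joined by a line. The grey line is the median of all genes at −0.15 and dashed lines are 2-fold either way. FAM35A and GLUD1 lie on opposite sides and 1.95 apart, DESI1 and TMEM167A lie past 2-fold lower, and LIG4 and PRKDC lie within 0.16 of their partners.

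The start windows were searched on both strands for CCCTCC, a C-rich word of the kind hnRNPK is known to bind, and for the GC box GGGCGG. The word CCCTCC was in the windows of TP53BP1, RIF1, MAD2L2 and XRCC6, 4 of the 7 genes searched, against 44.4% of the 27305 windows of all genes outside chromosome 8, 1 per gene. GGGCGG was in 6 of the 7, all but LIG4, against 44.6% of all windows. These matches are letters in a window and no binding was measured. The G and C content of the windows was between 47% for DCLRE1C and 80% for MAD2L2, with 58.3% for the median window of all genes.

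The factors that bring 53BP1 to broken chromatin lay on both sides of 0 on the log2 scale. Of 10 listed, all had a mean of at least 1 FPKM. None was at least 2-fold higher or lower, against 0.777% and 3.55% of all genes. Their median log2 ratio was −0.28, beside −0.15 for all genes. H2AFX, the histone variant whose phosphorylation marks breaks, was at 22.2 FPKM in hnRNPK siRNA and 44.1 FPKM in control siRNA, a ratio of 0.504 (0.466 to 0.544). RNF168, the ubiquitin ligase that writes the mark 53BP1 reads, was at 10.3 FPKM in hnRNPK siRNA and 17.6 FPKM in control siRNA, a ratio of 0.584 (0.547 to 0.622). On the other side, SUV420H1, a histone H4 lysine methyltransferase that helps make the methyl mark 53BP1 binds, was at 14.5 FPKM in hnRNPK siRNA and 8.41 FPKM in control siRNA, a ratio of 1.72 (1.61 to 1.84). Its relative SUV420H2 was at 1.41 FPKM in hnRNPK siRNA and 0.993 FPKM in control siRNA. At 1.5-fold, 3 of the 10 were lower and 1 higher, against 14.7% and 3.67% of all genes.

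The list of 53BP1 effectors beyond the 10 genes held 13 genes and also took in regulators of MAD2L2. Of the 13, 11 were in the table and 1 was at least 2-fold lower, against 3.55% of all genes. It was TRIP13, the ATPase that remodels and inactivates MAD2L2, at 9.88 FPKM in hnRNPK siRNA and 24.7 FPKM in control siRNA, a ratio of 0.399 (0.352 to 0.453). REV3L, the catalytic subunit of polymerase zeta that MAD2L2 also serves, was at 3.32 FPKM in hnRNPK siRNA and 4.74 FPKM in control siRNA. DYNLL1, a dynein light chain that binds 53BP1, was at 213 FPKM in hnRNPK siRNA and 166 FPKM in control siRNA, a ratio of 1.28 (1.23 to 1.34). MAD2L1BP, which cooperates with TRIP13, was at 6.74 FPKM in hnRNPK siRNA and 5.52 FPKM in control siRNA, with an interval of its ratio (0.948 to 1.58) that includes 1. The median log2 ratio of the 11 was −0.17, beside −0.15 for all genes.

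Of 14 listed regulators and antagonists of 53BP1, 13 had a mean of at least 1 FPKM. None of the 13 was at least 2-fold higher or lower, against 0.777% and 3.55% of all genes. Their median log2 ratio was −0.19, beside −0.15 for all genes. BRCA1 and its partner BARD1, which favour resection over end joining, had the lowest log2 ratios of these 13, with BRCA1 at 5.71 FPKM in hnRNPK siRNA and 10.1 FPKM in control siRNA and BARD1 at 2.98 FPKM in hnRNPK siRNA and 4.55 FPKM in control siRNA. The acetyltransferase KAT5 had the highest log2 ratio, at 13.4 FPKM in hnRNPK siRNA and 9.33 FPKM in control siRNA, a ratio of 1.43 (1.29 to 1.60).

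Of 14 end-joining accessory factors, 12 had a mean of at least 1 FPKM. None of the 12 was at least 2-fold higher or lower, against 0.777% and 3.55% of all genes. Their median log2 ratio was −0.21, beside −0.15 for all genes. TDP1 and TDP2, which free DNA ends of trapped topoisomerases, had the lowest log2 ratios of the 12. TDP1 was at 5.12 FPKM in hnRNPK siRNA and 8.31 FPKM in control siRNA, a ratio of 0.616 (0.552 to 0.688), and TDP2 was at 32.8 FPKM in hnRNPK siRNA and 48.2 FPKM in control siRNA. C9orf142, which encodes the Ku-binding factor PAXX, had the highest log2 ratio, at 17.2 FPKM in hnRNPK siRNA and 13.1 FPKM in control siRNA, a ratio of 1.31 (1.12 to 1.54). The polymerase POLM followed by log2 ratio, at 1.47 FPKM in hnRNPK siRNA and 1.26 FPKM in control siRNA, with an interval of its ratio (0.871 to 1.57) that includes 1. DNTT, a polymerase of lymphoid cells, was listed at 0 in both libraries.

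Alternative end joining, which anneals short repeats exposed by resection, had the lowest median of the 5 lists, −0.33, beside −0.15 for all genes. None of its 11 genes was at least 2-fold higher or lower, against 0.777% and 3.55% of all genes. RBBP8, which starts resection, was at 18.5 FPKM in hnRNPK siRNA and 35.5 FPKM in control siRNA. XRCC1, a scaffold for single-strand repair and ligase III, was at 7.30 FPKM in hnRNPK siRNA and 13.7 FPKM in control siRNA, a ratio of 0.533 (0.449 to 0.632). The other direction was taken by MRE11A, a resection nuclease, at 11.2 FPKM in hnRNPK siRNA and 9.28 FPKM in control siRNA, and by C3orf37, now named HMCES, at 24.3 FPKM in hnRNPK siRNA and 21.4 FPKM in control siRNA. At 1.5-fold 3 of the 11 were lower, RBBP8, XRCC1 and the polymerase gene POLQ, and none was higher, against 14.7% and 3.67% of all genes.

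**Figure D4:**
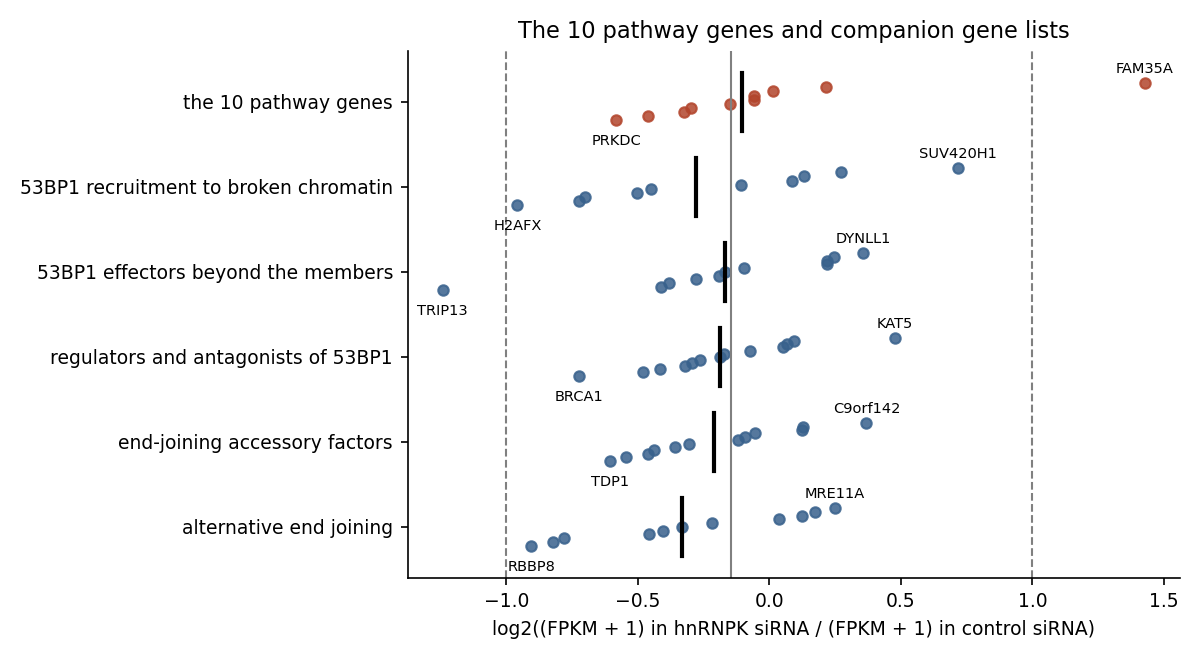
Log2 ratio of (FPKM + 1) between hnRNPK siRNA and control siRNA for the 10 pathway genes (red) and the genes of 5 companion lists with a mean of at least 1 FPKM (blue), 1 point per gene, with the lowest and highest gene of each named. Thick black bars are medians, the grey line is the median of all genes at −0.15 and dashed lines are 2-fold either way. FAM35A is the only point past 2-fold higher and TRIP13 the only point past 2-fold lower.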

How the data were processed

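Total RNA of RKO cells was sequenced from 1 library per group. Samples were grouped by their titles. The authors deposited 1 table of FPKM values with 1 column per library, processed with Bowtie 0.12.2 on build hg19 per the submitters' processing notes. Which annotation and counter were used, and whether strand was considered, is not given in the sources used here. SiNC in 1 column name matches the control title. The other column was assigned to hnRNPK siRNA because its name holds Si and K, which is less direct. No value column was left unmapped.

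The reads behind each FPKM were recovered as the smallest whole numbers that fit both libraries with a common whole length (tolerance 1e-08 reads), after each library total had been found as a common divisor of low values. True reads can be a common multiple, so the intervals are not too narrow for that reason. Genes with a mean of at least 1 FPKM were kept, 11454 in all, with a median of 592 reads in hnRNPK siRNA and 633 in control siRNA. Ratios in counts use a pseudocount of 1 FPKM, which understates the change of low genes, and printed ratios use FPKM alone. No p-value was computed. Recovery, intervals and TMM factors were tested on simulated data. Python 3.11.15, numpy 2.4.6, pandas 2.3.3 and scipy 1.17.1 were used.

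The genes and companion lists were chosen with earlier results of these data known. Named were the 10 genes, HNRNPK, the 2 highest and 2 lowest of each companion list, any gene of these past 2-fold, the listed copies, and the neighbours of FAM35A. One gene that this rule picks is not reported here. Other genes named were chosen after their values were seen. Gene order and starts come from RefSeq and GENCODE annotations of GRCh38, so no gene coordinates are given on hg19. Alternatives were other pseudocounts, scalings, filters and folds.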

Additional observations from a re-analysis of the deposited data

How the results depend on the processing

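FAM35A kept its direction and stayed past 2-fold under every other pseudocount, scaling and filter tried, with log2 ratios between 1.14 with a pseudocount of 5 FPKM and 1.60 with TMM factors. No setting put any of the 10 genes at least 2-fold lower, against 3.55% of all genes with 1 FPKM added and the deposited scaling. The 3-fold and 1.5-fold thresholds were applied only with 1 FPKM added and the deposited scaling. There, 0 of the 10 genes were past 3-fold, against 49 of the 11454 genes. At least 1.5-fold lower were 0 of the 10, against 14.7% of all genes. These counts depend on that choice, since FAM35A at 1.60 with TMM factors is past 3-fold. By FPKM alone PRKDC was 1.51-fold lower. The median of the 10 genes, −0.10, was 0.042 after centring and 0.065 with TMM factors, which is a change of sign. HNRNPK, at −2.44, was −2.37 when 5 FPKM were added, −2.29 once centred and −2.26 by TMM. Across all genes kept, 496 were past 2-fold, of which 17.9% were higher. Their number was 916 with 0.1 FPKM added and 109 with 5 FPKM added, and 308 among genes with a mean of 5 FPKM or more. It was 383 once centred and 410 by TMM, with 37.1% and 36.6% of them higher. At 1.5-fold it was 2102 and at 3-fold 49.

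The list of factors that bring 53BP1 to chromatin had a median of −0.18 with a pseudocount of 5 FPKM, −0.13 after centring and −0.12 with TMM factors. Regulators of 53BP1 were at −0.042 and −0.016 and alternative end joining at −0.19 and −0.16 under centring and TMM factors in that order. These movements follow from the settings themselves. Centring subtracts the median of all genes, −0.15, from every log2 ratio, and TMM rescales the hnRNPK siRNA library by 1 factor, 0.884. A larger pseudocount shrinks log2 ratios, most of all for low genes. No paired analysis was possible because each group has 1 library, so no replicate could be left out either. Depth limits C20orf196, at 15 and 17 reads, and the copies of FAM35A.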

Other observations

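PRKDC belongs to a family of large kinases and kinase-like proteins, whose other members were looked up after the values were seen. ATR, the kinase of stalled replication forks, was at 2.37 FPKM in hnRNPK siRNA and 5.36 FPKM in control siRNA, a ratio of 0.441 (0.403 to 0.482). MTOR, the nutrient-sensing kinase, was at 3.83 FPKM in hnRNPK siRNA and 8.17 FPKM in control siRNA, a ratio of 0.468 (0.432 to 0.506). ATM, the kinase of DNA breaks, was at 2.64 FPKM in hnRNPK siRNA and 4.17 FPKM in control siRNA, a ratio of 0.635 (0.585 to 0.689). These 3 lay below 0 on the log2 scale, as did PRKDC and 64.8% of all genes.

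SMG1, the kinase of nonsense-mediated decay, was at 11.7 FPKM in hnRNPK siRNA and 10.6 FPKM in control siRNA, a ratio of 1.10 (1.06 to 1.15). TRRAP, the scaffold of acetyltransferase complexes that lacks kinase activity, was at 10.4 FPKM in hnRNPK siRNA and 11.6 FPKM in control siRNA. Its log2 ratio of −0.14 was also below 0 and lay near the median of all genes, −0.15. TELO2, TTI1 and TTI2, which form the co-chaperone that stabilises these proteins, had ratios of 0.829 (0.720 to 0.953), 0.829 (0.775 to 0.888) and 1.08 (0.933 to 1.25).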
